A study of Mus musculus with 16 samples.

Results

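The guanylate-binding proteins (GBPs) were examined in bone marrow-derived macrophages (BMDM) from WT and *Camkk2*-/- mice. The family was taken as 8 genes named by symbol, *Gbp2* to *Gbp9*. A probe set with the gene's own symbol was found for 6 of the 8 (*Gbp2*, *Gbp3*, *Gbp4*, *Gbp7*, *Gbp8* and *Gbp9*, with 1 probe set each), among 19505 genes in all. *Gbp5* and *Gbp6*, and 3 further mouse GBP genes (*Gbp2b*, *Gbp10* and *Gbp11*), were not analysed here.

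The 16 Affymetrix arrays formed 4 groups of 4 replicates, WT and *Camkk2*-/- BMDM grown in regular medium (RM) or with tumor-conditioned medium (TCM) from E0771, a mouse mammary cancer cell line. Marrow came from the long bones of female mice aged 10 to 12 weeks, with 16 mice of each genotype, and all cultures were kept for 5 days with 30% L929-conditioned medium, which supplies M-CSF, the growth factor of macrophages. TCM made up 20% of the medium by the sample labels and 25% by the study's methods. *Camkk2* was deleted in the whole animal. How the marrow of these mice was divided among the 8 cultures of a genotype is not stated in the sources used here, so the p-values measure the spread between these cultures, some of which may share mice.

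GBPs are large GTPases of the dynamin superfamily whose genes are switched on by interferons, most strongly by interferon-γ. In macrophages they gather on the vacuoles of parasites and bacteria, help to break them open, and expose microbial lipopolysaccharide and DNA to the inflammasomes that trigger pyroptosis. In the mouse the genes lie in 2 clusters, and here *Gbp2*, *Gbp3* and *Gbp7* were on chromosome 3 while *Gbp4*, *Gbp8* and *Gbp9* were on chromosome 5. *Camkk2* also lies on chromosome 5, with 238 protein-coding genes between it and *Gbp4* in the GRCm38.p6 gene table.

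The upstream stretches of the 3 chromosome 3 members are shown because interferon control of this family is read through short motifs just before the start of transcription. They were taken from RefSeq (GRCm38.p6), which matched 3 of the 6 measured members, and each runs 5′ to 3′ on the plus strand, ending at the base before the first annotated base of the gene. Capitals mark matches to an interferon-stimulated response element core (ISRE, read as GAAA, any 2 bases and GAAA) or to an interferon-γ-activated site (GAS, read as TTC, any 3 bases and GAA), searched on both strands. Every ISRE match was on the minus strand, so it reads here as its reverse complement.
Gbp2, chr3:142620413-142620662: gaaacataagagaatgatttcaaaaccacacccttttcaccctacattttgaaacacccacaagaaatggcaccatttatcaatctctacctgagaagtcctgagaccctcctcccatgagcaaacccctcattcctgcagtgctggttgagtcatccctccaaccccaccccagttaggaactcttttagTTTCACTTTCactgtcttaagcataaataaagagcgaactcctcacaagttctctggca
Gbp3, chr3:142559794-142560015: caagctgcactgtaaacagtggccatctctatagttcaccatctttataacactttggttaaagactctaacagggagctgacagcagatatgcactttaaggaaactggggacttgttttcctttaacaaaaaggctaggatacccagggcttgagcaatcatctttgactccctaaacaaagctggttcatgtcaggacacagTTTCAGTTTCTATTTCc
Gbp7, chr3:142530086-142530335: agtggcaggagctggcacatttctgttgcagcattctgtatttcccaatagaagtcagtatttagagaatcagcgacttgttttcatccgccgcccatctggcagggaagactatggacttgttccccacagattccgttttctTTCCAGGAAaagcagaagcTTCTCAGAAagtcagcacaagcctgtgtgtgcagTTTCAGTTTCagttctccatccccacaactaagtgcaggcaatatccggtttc

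All 3 stretches held an ISRE match close to the first annotated base of the gene. Counted back from the first annotated base of the gene, it lay at 59 to 50 bases in *Gbp2* and at 53 to 44 bases in *Gbp7*. *Gbp3* held 2 ISRE matches that overlap each other, at 17 to 8 and at 11 to 2 bases, while a second RefSeq window for the same gene held none. The first annotated base of *Gbp3* lies inside its 250-base window, so its printed stretch has 222 bases. Its 2 matches are thus further from the RefSeq start of that window than these distances. For *Gbp2* and *Gbp7* the printed stretch is the full 250 bases. *Gbp7* also held 2 GAS matches, at 106 to 98 and 87 to 79 bases, and no GAS match was found in the windows of *Gbp2* or *Gbp3*. Over all 32851 RefSeq windows of 250 bases, 2.98% held an ISRE match, 7.02% a GAS match and 0.332% both, as *Gbp7* did, while 0.18% held more than 1 ISRE match, as *Gbp3* did. A match describes the letters only.

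**Figure D1:**
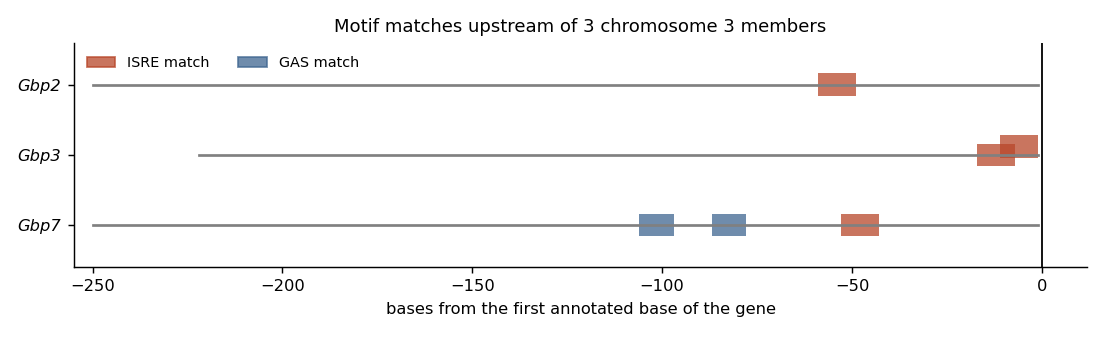
Positions of ISRE (red) and GAS (blue) matches in the stretches upstream of *Gbp2* (250 bases), *Gbp3* (222 bases) and *Gbp7* (250 bases), with distance from the first annotated base of the gene in bases on the x axis and 1 line per gene. The ISRE matches lie within 59 bases of that base in all 3 genes, the 2 matches of *Gbp3* overlap (the second is drawn raised), and only the *Gbp7* line carries GAS matches.

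The targeted gene was checked first. In RM, *Camkk2* signal averaged 9.59 ± 0.34 (SD, n = 4, log2) for WT and 6.74 ± 0.67 for null cultures. In TCM the averages were 9.51 ± 0.25 and 7.65 ± 0.46, and the genotypes did not overlap in either medium. Both null averages were above the median of background probe sets, 5.37. In null cells the signal was higher in TCM than in RM by 0.91 (limma adjusted p = 0.0382), with overlapping groups. The source of the remaining signal was not tested. The arrays correlated with each other at 0.974 to 0.995 over all genes, with none identical. WT TCM replicate 3 had the widest deviation from its group mean, with an SD over all genes of 0.355, followed by WT TCM replicate 1 at 0.325, against 0.220 to 0.301 on the other 14 arrays. Of 9 macrophage markers 8 were measured, and *Adgre1* (F4/80), *Itgam* (CD11b) and *Csf1r* had group means between 15.2 and 17.4, far above the median of 5.37 over 23 background probe sets. All group means of the 6 GBP genes were above that median too.

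In *Camkk2*-/- TCM-BMDM the whole measured family was higher than in WT TCM-BMDM. All 6 GBP genes passed the test (limma, adjusted p under 0.05 over 19505 genes), where 2.7% of all genes were called higher, and their median log2 difference was 2.00 against -0.02 over all genes. The differences ran from 2.47-fold for *Gbp9* to 5.26-fold for *Gbp4*. For all 6 genes, the null and WT TCM groups did not overlap, where 5.6% of all genes were higher without overlap, and every *Camkk2*-/- TCM array also lay above all 8 RM arrays. Of all genes, 3.17% had the 4 null TCM arrays above the other 12.

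*Gbp2* encodes a prenylated GBP that coats the vacuole of *Toxoplasma* in mouse cells. Its log2 signal in WT TCM-BMDM was 14.09, 14.01, 11.66 and 13.33, and in *Camkk2*-/- TCM-BMDM it was 15.42, 15.71, 15.26 and 15.03. WT replicate 3 was low, and without overlap the null group stood 4.24-fold higher (95% confidence interval 2.45 to 7.34, adjusted p = 0.00196).

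*Gbp3* is one of the chromosome 3 genes whose joint deletion in mice weakens resistance to *Toxoplasma*. It measured 12.58, 12.83, 11.07 and 12.56 in WT TCM-BMDM against 14.25, 14.56, 14.02 and 13.88 in the null cells. WT replicate 3 was again the low array, and the difference was 3.78-fold (2.26 to 6.32, adjusted p = 0.00232).

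*Gbp7*, another member of that deleted block, has been linked in mouse macrophages to resistance against intracellular bacteria. The 4 WT TCM arrays gave 13.66, 13.78, 11.82 and 13.24, and the 4 null arrays gave 15.10, 15.03, 15.09 and 14.85. The null cultures were tightly grouped, with an SD of 0.12 against 0.90 in WT. The difference was 3.71-fold (2.25 to 6.13, adjusted p = 0.00207).

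*Gbp4* has been described in mouse cells as a brake on IRF7, a transcription factor for type I interferon genes. Its signal was 12.16, 11.98, 10.24 and 12.18 in WT TCM-BMDM and 13.91, 13.97, 14.29 and 13.98 in *Camkk2*-/- TCM-BMDM. With WT replicate 3 low and no overlap, this was the highest fold among the 6, 5.26 (3.29 to 8.42, adjusted p = 0.000157), and *Gbp4* ranked 28 of 19505 genes by its difference.

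*Gbp8* measured 9.56, 9.66, 9.47 and 10.58 in WT TCM-BMDM and 11.86, 11.66, 12.16 and 12.0004 in the null cells. Here WT replicate 4, not replicate 3, stood apart, and it was high. The difference of 4.29-fold (3.01 to 6.12) had the smallest adjusted p of the family, 3.92e-05.

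*Gbp9* had the smallest difference. It gave 11.63, 11.91, 10.90 and 11.96 in WT TCM-BMDM and 12.93, 13.06, 12.90 and 12.73 in *Camkk2*-/- TCM-BMDM, a 2.47-fold difference (1.84 to 3.32, adjusted p = 0.000486). The median log2 difference was 1.92 over the 3 chromosome 3 members and 2.10 over the 3 on chromosome 5, the chromosome of *Camkk2*.

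The size of the differences depended in part on 1 culture. Without WT TCM replicate 3 all 6 members were still called higher (highest adjusted p = 0.00694, with 1.68% of all genes called higher), and their median log2 difference was 1.54 in place of 2.00. GBP genes arose by duplication and resemble each other in sequence, and how far each probe set also takes up transcripts of its relatives was not tested.

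**Figure D2:**
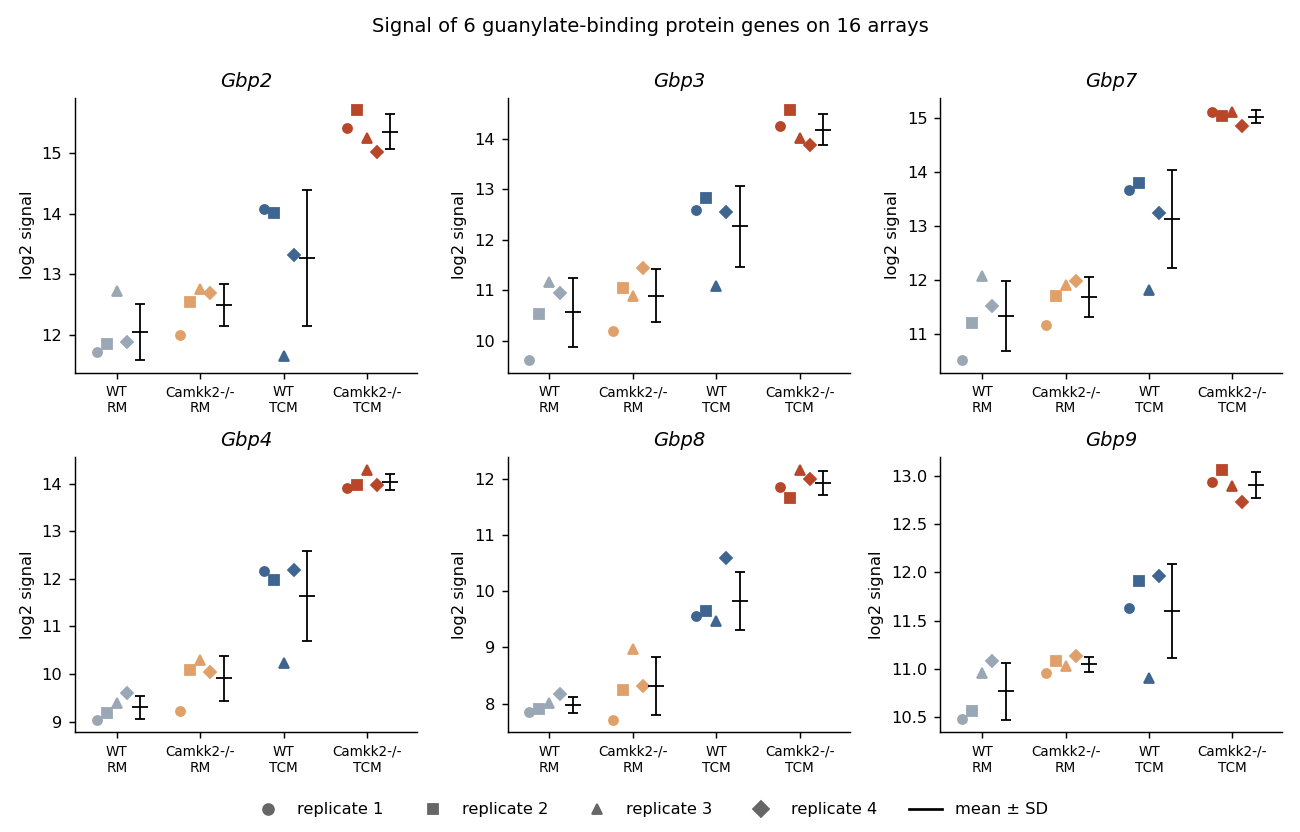
Log2 signal of the 6 measured GBP genes (1 panel each, y axis) in the 4 groups (x axis), with 1 symbol per array shaped by replicate number and bars for the group mean ± SD (n = 4). All 4 *Camkk2*-/- TCM arrays lie above the other 12 in every panel, and WT TCM replicate 3 (blue triangle) falls at or below the highest RM array in 5 of the 6 panels.

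In RM no member was called between the genotypes. In WT RM-BMDM *Gbp4* gave 9.04, 9.18, 9.39 and 9.60, and in *Camkk2*-/- RM-BMDM 9.22, 10.09, 10.30 and 10.04. These ranges overlap, and the log2 difference of 0.61 had a confidence interval from -0.07 to 1.29. *Gbp4* had the highest difference of the 6, and the other 5 ranged from 0.28 for *Gbp9* to 0.45 for *Gbp2*.

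None of the 6 passed (adjusted p of 0.69 to 0.922), where 0.446% of all genes were called higher. None reached an unadjusted p under 0.05 either, with a lowest value of 0.0756, where 4.82% of all genes did in the higher direction. The groups overlapped for all 6, where 2.61% of all genes were higher without overlap. All 6 differences were above 0, with a median of 0.35 against 0.02 over all genes. The upper ends of the intervals lay between 0.70 and 1.29, so differences up to those sizes in RM lie within the error of 4 arrays a group.

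In WT cells GBP signal was higher in TCM than in RM. Here 5 of the 6 members were called higher (limma), where 2.21% of all genes were, and the family median was 1.75 against 0.04 over all genes. *Gbp4* rose 5.05-fold (3.16 to 8.08, adjusted p = 0.000242) and *Gbp8*, at 7.85, 7.90, 8.01 and 8.17 in WT RM-BMDM, rose 3.57-fold (2.51 to 5.10, adjusted p = 0.000152). These were the 2 members whose WT groups did not overlap, where 4.83% of all genes were higher without overlap.

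*Gbp7* was 10.53, 11.21, 12.08 and 11.52 in WT RM-BMDM, and its rise was 3.46-fold (adjusted p = 0.00508). *Gbp3* was 9.62, 10.52, 11.15 and 10.94 and rose 3.25-fold (adjusted p = 0.00915). *Gbp9* was 10.48, 10.56, 10.96 and 11.08 and rose 1.78-fold (adjusted p = 0.0284). In each of these genes WT TCM replicate 3 lay within the range of the WT RM arrays.

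*Gbp2* did not pass in WT. Its WT RM arrays gave 11.72, 11.85, 12.73 and 11.88, so WT TCM replicate 3, at 11.66, was below all of them, and the log2 difference was 1.22 (0.43 to 2.02, adjusted p = 0.0999). Without that array it was 1.76 (adjusted p = 0.000293), and then all 6 members were called, with a median of 2.03 and 2.77% of all genes called higher. The call for *Gbp9* was lost when any 1 of 5 arrays was left out (WT RM replicate 1 or 2, or WT TCM replicate 1, 2 or 4), with adjusted p up to 0.116.

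In *Camkk2*-/- cells the same medium gave larger differences by point estimate. All 6 members were called higher in TCM than in RM, where 6.13% of all genes were, and no member's groups overlapped, where 9.48% of all genes were higher without overlap. The median was 3.30 against 0.01 over all genes. *Gbp4* was 17.4-fold higher (10.9 to 27.9, adjusted p = 4.35e-08) and *Gbp8* 12.2-fold (8.56 to 17.4, adjusted p = 8.35e-09). *Gbp9* was again lowest, at 3.62-fold (2.70 to 4.86, adjusted p = 2.37e-06).

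On the RM side of that comparison *Gbp2* gave 11.996, 12.55, 12.75 and 12.69, *Gbp3* 10.20, 11.05, 10.88 and 11.45, and *Gbp7* 11.17, 11.72, 11.91 and 11.98. *Gbp8* gave 7.72, 8.25, 8.97 and 8.31, and *Gbp9* 10.96, 11.08, 11.03 and 11.13. Replicate 1 was the lowest of the null RM arrays in all 5 genes, as it was for *Gbp4*. The chromosome 3 genes rose by similar amounts, 7.26-fold for *Gbp2*, 9.75-fold for *Gbp3* and 10.0-fold for *Gbp7*.

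The log2 response of WT cells came to 42.8% of that of null cells for *Gbp2*, the lowest share, and 56.7% for *Gbp4*, the highest. Whether the responses differed was tested as the genotype by medium interaction. *Gbp8* alone passed, with a log2 difference of responses of 1.77 (1.05 to 2.50, adjusted p = 0.0415), where 0.0513% of all genes were called in that direction. The other 5 ranged from 1.02 (*Gbp9*) to 1.79 (*Gbp4*), with adjusted p between 0.175 and 0.345.

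All 6 had an unadjusted interaction p under 0.05, from 5.53e-05 to 0.00634, as had 3.49% of all genes in that direction. The call for *Gbp8* did not hold up: it was lost in 14 of the 16 fits that left out 1 array and stayed only without *Camkk2*-/- RM replicate 3 or WT TCM replicate 4. Without WT TCM replicate 3 the family median of the interaction was 1.14 in place of 1.61, and no member passed.

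**Figure D3:**
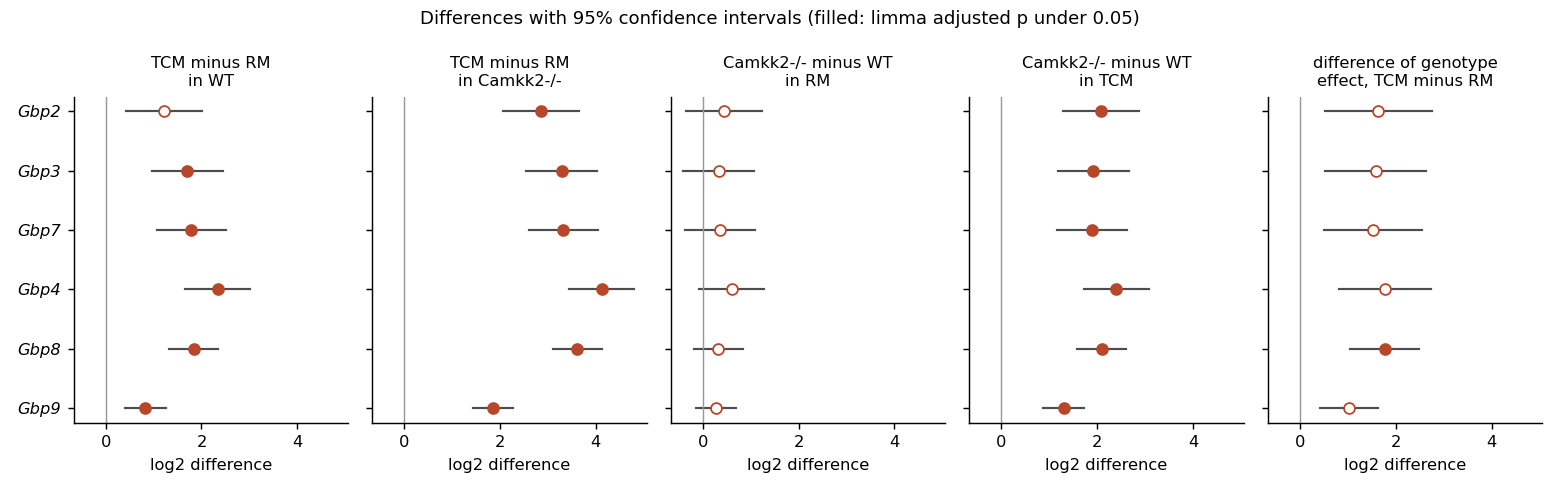
Log2 differences (points, x axis) with 95% confidence intervals (lines) for the 6 GBP genes (y axis) in 5 comparisons (panels), with filled points for limma adjusted p under 0.05. In RM every interval crosses 0, in TCM the genotype differences lie between 1.31 and 2.40, and the last panel, the difference between the genotype effects, has 1 filled point, *Gbp8*.

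The group means stood in the same order for all 6 genes, lowest in WT RM-BMDM, then *Camkk2*-/- RM-BMDM, then WT TCM-BMDM, and highest in *Camkk2*-/- TCM-BMDM, an order that 9.84% of all genes had. *Gbp2*, for example, averaged 12.05 ± 0.46, 12.50 ± 0.34, 13.27 ± 1.13 and 15.36 ± 0.29 (SD, n = 4 each), and *Gbp4* 9.30 ± 0.24, 9.91 ± 0.47, 11.64 ± 0.94 and 14.04 ± 0.17. Neighbours in that order overlapped between the RM groups for every gene, and between *Camkk2*-/- RM-BMDM and WT TCM-BMDM for every gene but *Gbp8*. The latter overlap came from WT TCM replicate 3 alone, since the other WT TCM arrays lay above every null RM array for those 5 genes. No test was made between these 2 groups.

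Most members also varied together within groups. Deviations from the group means correlated between members at 0.21 to 0.93 over 16 arrays, with a median of 0.81 over 15 pairs, a description of points that share their array and its normalization. The 5 pairs with *Gbp8* were the lowest, at 0.21 to 0.61, and the other 10 pairs lay at 0.78 to 0.93. The family mean, each gene centred on its mean over 16 arrays, was 0.55, 0.63, -0.87 and 0.58 on the WT TCM arrays and 2.19, 2.27, 2.22 and 2.02 on the *Camkk2*-/- TCM arrays. The median SD of the 6 genes was 0.851 in WT TCM-BMDM and 0.192 in *Camkk2*-/- TCM-BMDM, against 0.263 and 0.219 over all genes. In RM it was 0.378 in WT and 0.419 in null cells, against 0.279 and 0.248, so the members were the more spread in every group but *Camkk2*-/- TCM-BMDM.

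Among 15 receptors and factors upstream of the family 13 were measured, and in TCM 4 of them were higher in *Camkk2*-/- cells and none lower (median 0.53), where 2.7% of all genes were called higher and 1.79% lower. *Irf1*, which activates *Gbp* promoters, averaged 13.28 ± 0.34 in WT TCM-BMDM and 14.37 ± 0.20 in *Camkk2*-/- TCM-BMDM, a log2 difference of 1.09 (adjusted p = 0.000843). In WT cells *Irf1* differed by only 0.23 between the media (adjusted p = 0.66). *Batf2*, an interferon-inducible partner of IRF1, was higher by 1.69 (adjusted p = 0.000989) and *Stat2*, a subunit of the ISRE-binding complex, by 1.14 (adjusted p = 0.00436).

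The fourth, named after its value was seen, was the receptor kinase *Jak2* (1.03, adjusted p = 0.0111). The same 4 were called without WT TCM replicate 3, where 1.68% of all genes were called higher. Of 7 ligands and inducers 6 were measured and 2 were higher in null TCM-BMDM, against 2.7% of all genes with all arrays. These 2 were the cytokines *Il18* (1.42, adjusted p = 5.17e-05) and *Il27* (1.44, adjusted p = 0.000912). The interferon transcripts on the list gave no signal clear of background. Their group means were 5.19 to 5.46 for *Ifng*, 4.20 to 4.70 for *Ifnb1* and 3.10 to 3.45 for *Ifna4*. Other interferon genes were not examined.

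The immunity-related GTPases (IRGs), smaller interferon-inducible GTPases that act with GBPs on vacuoles, were mostly higher too. Of 11 listed 7 were measured, and 5 were higher in *Camkk2*-/- TCM-BMDM (median 1.09), against 2.7% of all genes. *Iigp1*, which coats *Toxoplasma* vacuoles, was higher by 3.21 (adjusted p = 3.92e-05), *Igtp* by 1.83 (adjusted p = 0.00251) and *Tgtp2* by 2.16 (adjusted p = 0.00489). *Irgm1* and *Irgm2*, which are among the regulatory IRGs, also passed (1.03 and 1.09, a pair picked out with their values known). *Gm12250* (0.85, adjusted p = 0.126) and *Gm4951* (0.09, adjusted p = 0.948) did not. Without WT TCM replicate 3, 3 of the 7 were called (*Igtp*, *Iigp1* and *Tgtp2*), against 1.68% of all genes, and the median was 0.82. *Irgm1* and *Irgm2* were no longer called.

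In RM *Iigp1* was the 1 IRG of 7 that was called, higher in null cells by 1.75 (adjusted p = 0.0242), where 0.446% of all genes were called higher. Of 7 other large GTPases 5 were measured and 3 were higher in null TCM-BMDM, against 2.7% of all genes in that comparison. They were the antiviral *Mx2* (2.79, adjusted p = 0.000139) and *Mx1* (1.99, adjusted p = 0.00143) and the very large GTPase *Gvin1* (0.93, adjusted p = 0.0113). Without WT TCM replicate 3 *Gvin1* was no longer called.

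In the machinery that GBPs work through, single genes were called between genotypes in TCM. Of 12 ubiquitin and ATG8 conjugation genes, which help to load GBPs on vacuoles, 1 was higher and 1 lower in *Camkk2*-/- TCM-BMDM (median 0.03). In that comparison 2.7% of all genes were called higher. *Trim21*, an interferon-inducible ubiquitin ligase, was higher by 1.01 (adjusted p = 0.00196), and *Gabarapl1*, an ATG8 protein, was lower, with a difference of -0.77 (adjusted p = 0.0114), where 1.79% of all genes were called lower. Of 8 inflammasome and pyroptosis genes 1 was higher, where 2.7% of all genes were. It was *Casp4*, the mouse sensor of intracellular lipopolysaccharide known as caspase-11 (0.90, adjusted p = 0.018), and it too was lost without WT TCM replicate 3.

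The DNA sensor *Aim2* (0.58, adjusted p = 0.0777) and *Casp1* (0.36, adjusted p = 0.283) did not pass between genotypes. Both passed between media in null cells, with 1.56 for *Aim2* (adjusted p = 4.81e-06) and 0.80 for *Casp1* (adjusted p = 0.0018). In that comparison 4 of the 8 inflammasome and pyroptosis genes were called higher, where 6.13% of all genes were. Between media in WT cells 2 of the 8 were, where 2.21% of all genes were. Of the 12 ubiquitin and ATG8 genes, 2 were called higher and 1 lower between media in null cells. There 6.13% of all genes were called higher and 5.37% lower. The products of the 6 prenylation and CaaX-processing genes attach lipid anchors to proteins such as GBP2 or process the CaaX end. None of these 6 genes was called by limma in any comparison. Between genotypes in TCM 1 had an unadjusted p under 0.05, in the lower direction (median 0.01).

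**Figure D4:**
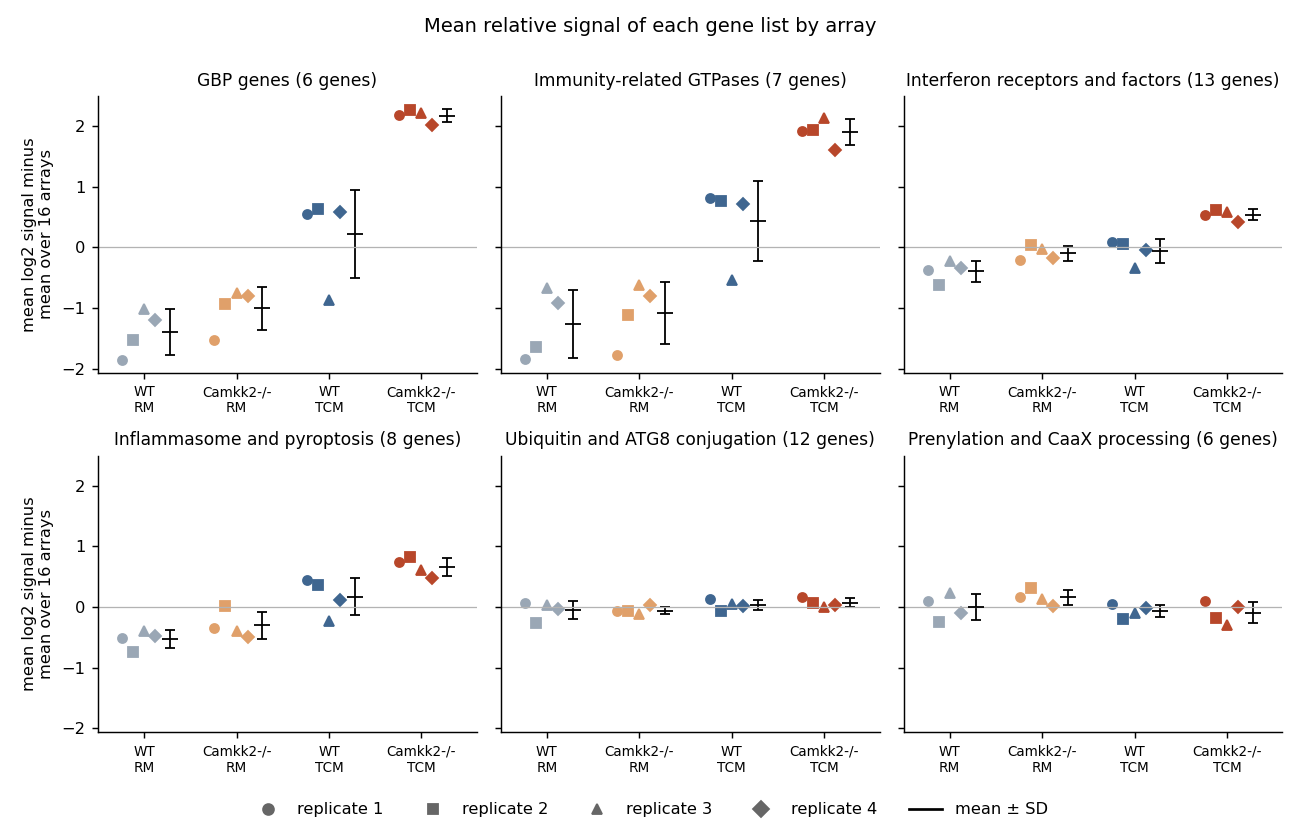
Mean log2 signal of 6 gene lists on each array, each gene centred on its mean over 16 arrays (y axis, shared by all panels), in the 4 groups (x axis), with symbols shaped by replicate number and bars for mean ± SD (n = 4). The GBP and IRG panels span the widest range and share the low WT TCM replicate 3, at -0.87 and -0.54, while the ubiquitin and ATG8 panel stays between -0.26 and 0.17 and the prenylation panel between -0.30 and 0.31.

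Markers of other myeloid cells moved with the groups. For 11 of 12 neutrophil markers measured, the mean centred signal was -1.56 to -0.63 in WT RM-BMDM, -1.24 to -0.18 in *Camkk2*-/- RM-BMDM, -0.27 to 0.89 in WT TCM-BMDM and 0.58 to 1.80 in *Camkk2*-/- TCM-BMDM, and 2 of the 11 were called higher in null TCM-BMDM, none without WT TCM replicate 3. For 5 of 6 inflammatory monocyte markers the ranges were -2.68 to -0.81, -1.56 to -0.54, -0.79 to 1.71 and 1.26 to 2.39. Of these 5 markers 1 was called higher in null TCM-BMDM, and 2.7% of all genes were called higher in that comparison. Between media, 6 of the 11 neutrophil markers were called higher in TCM in each genotype. Of the 5 monocyte markers 3 were called higher in WT and 2 in null cells, against 2.21% and 6.13% of all genes. On both lists WT TCM replicate 3 was the lowest array of its group, at -0.27 and -0.79, as it was for the GBP genes. On the macrophage list it was not, at 0.07 in a group spanning 0.06 to 0.07.

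Macrophage markers went both ways. Between genotypes in TCM 2 of the 8 were called lower in null cells, where 1.79% of all genes were. They were *Mrc1* (-1.10) and *Adgre1* (-0.58), both picked out with their values known and neither called without WT TCM replicate 3. *Mertk* (0.74, adjusted p = 0.346) and *Fcgr1* (0.67, adjusted p = 0.0606) did not pass. Between media in null cells 4 of the 8 were called lower and 1 higher (median -0.60), where 5.37% of all genes were called lower and 6.13% higher. None of 7 T and NK cell markers or 3 B cell markers was called in any comparison (limma). Between genotypes in TCM 3 and 1 of them were higher in null cells at an unadjusted p under 0.05, as were 7.6% of all genes. Of the 7 T and NK cell markers 5 had means below the background median in all 4 groups. Of 5 dendritic cell markers 4 were below it in all 4 groups. The other, *Siglech*, was called higher between genotypes in TCM, where 2.7% of all genes were. Between media in null cells 2 of the 5 were called higher, where 6.13% of all genes were. The part of these cells in the GBP result was not tested, and in bulk RNA more cells of a type and more RNA per cell cannot be told apart.

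The 5 genes outside the family whose signal over the 16 arrays was most like the family mean were *Phf11a* (Pearson r 0.994), *Parp9* (0.993), *Dtx3l* (0.991), *Trim30b* (0.990) and *Parp12* (0.990), given as a description. Their deviations from the group means also followed the family, with r of 0.859 for *Parp12* to 0.982 for *Dtx3l*. Between genotypes in TCM they differed by 2.14, 1.23, 1.11, 2.71 and 1.09 on the log2 scale.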

How the data were processed

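RNA from 16 BMDM cultures was hybridised to Affymetrix arrays, 1 array per culture. The deposited values are log2 signals per probe set, which the authors summarised before depositing them (Affymetrix Expression Console in the submitters' processing notes). They were used with no further normalization. The study's methods name Transcriptome Analysis Console for quality control and for finding differentially expressed genes. No source used here names the genome build of the array annotation.

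Of 28846 probe sets 6640 were controls, and 19572 of the other 22206 had 1 gene symbol in the platform annotation, 2634 having none. The probe set with the highest mean stood for each of 55 genes with several, which left 19505 genes. These log2 values were fitted with limma 3.58.1 in R 4.3.3, with a mean for each of the 4 groups over all 16 arrays and Benjamini-Hochberg adjustment over all genes, after a test on simulated data. A gene was called at an adjusted p under 0.05. Confidence intervals are at 95% from the same fit and cover the spread between arrays only. As these are arrays, the number of cultures limits the precision.

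Groups came from the sample labels. Members were named in full, and of each list at most the 3 with the smallest adjusted p between genotypes in TCM, plus any significant in the other direction. Members and lists were chosen with earlier results of these data known. Motifs were searched with Python 3.11.15 in the 250 bases before each RefSeq start. Alternatives were leaving out each array, other normalization, probe set, filter, block, variance and threshold settings.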

Additional observations from a re-analysis of the deposited data

Results flagged for a closer look

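In 4 of the 24 combinations of a GBP gene and a group, 1 array stood apart, with its gap to the nearest other array taking more of the group's range than Dixon's critical value allows. Chance alone does this in about 1 of 20 independent groups. The 24 combinations share their arrays, and most members varied together, so that rate is no yardstick for the count. WT TCM replicate 3 was low for *Gbp4* (gap 0.893 of the range) and for *Gbp3* (0.844). WT TCM replicate 4 was high for *Gbp8* (0.835), and WT RM replicate 3 was high for *Gbp2* (0.837). The genotype difference of *Gbp8* was larger in TCM than in RM by 1.77 on the log2 scale, a call with all 16 arrays that was lost in 14 of the 16 fits without 1 array.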

How the results depend on the processing

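Without each array in turn, 4 to 6 members were called in WT, 6 in *Camkk2*-/- cells, 0 between genotypes in RM and 6 in TCM, and no direction changed under any alternative run. For the interaction 0 to 1 were called without 1 array, and 0 after repeated quantile normalization, with array weights, or at an adjusted p under 0.01. The medians without 1 array ran from 1.54 to 2.11 between genotypes in TCM and from 1.14 to 1.81 for the interaction, the low ends without WT TCM replicate 3. *Gbp2* in WT passed with array weights as it did without that array, and *Gbp9* in WT was lost in the fit to the 8 arrays compared, after centring and at 0.01. With the replicate number as a block 5, 6, 0, 6 and 1 members were called (WT, *Camkk2*-/-, RM, TCM and interaction), as without it. Same-numbered cultures correlated at -0.15 to 0.23, with 8 of 16 pairs over 0.1, and in 7 of the 16 the same number gave the highest correlation. No label says that the numbers pair cultures, so they were not taken to pair them. Whether some cultures were paired remains unknown. Calls over all genes were less steady. Higher calls fell between genotypes in TCM from 526 to 327, 344 and 338 without WT TCM replicate 3 and *Camkk2*-/- TCM replicates 2 and 3, and to 265 at 0.01. In WT they fell from 431 to 274 and 259 without WT RM or TCM replicate 2, to 279 with 8 arrays and 205 at 0.01. In RM they fell from 87 to 56 and 53 without WT or *Camkk2*-/- replicate 2 and to 47 at 0.01, in null cells from 1195 to 745 at 0.01, and for the interaction from 10 to 3 at 0.01, and were 5 to 22 without 1 array, 18 with trend and robust variance and 19 with a term for replicates 1 and 2 against 3 and 4. The cause was not tested. The list calls without WT TCM replicate 3 were counted after seeing the data.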
